A study of Mus musculus with 103 samples.

Results

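Expression in the aortic arch was compared between ApoE knockout and wild-type mice after 8 weeks of vehicle, the day labelled day57. All libraries of these groups were taken, 10 of knockout and 5 of wild-type mice, which leaves 88 other libraries in the series. Genes were kept where the deposited value, a column called FPKQ in fpkm-type units, was at least 1 in at least 5 of the 15 libraries, which left 13152 of 51456 gene symbols. The study asked how an antibody against sclerostin acts on the aorta of mice prone to atherosclerosis, and the vehicle groups show the aortic state against which that antibody was set. Both groups were female C57BL/6 mice from the Jackson Laboratory, ovariectomized, fed a diet with 42% of its calories from fat, and injected under the skin with vehicle every week. They were 17 to 18 weeks old when the arch was taken, and each library came from 1 animal. The knockout animals lack Apoe in the whole body, and the labels do not name the allele. After cardiac perfusion the arch was flushed and outer fat was swabbed off, and poly(A) RNA of the whole arch was sequenced with a stranded Illumina kit.

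Apolipoprotein E is the ligand by which the liver takes up remnant lipoproteins, and macrophages secrete it when they export cholesterol. Mice without it accumulate remnants in plasma and develop atherosclerotic plaques, first where flow is disturbed, as at the inner curve of the aortic arch. In a plaque, monocyte-derived macrophages take up lipoprotein, digest it in lysosomes and store the cholesterol as foam cells, while smooth muscle cells leave the media and lay down matrix, and cells like those of cartilage appear in advanced lesions.

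Libraries of both groups held 12405 to 12928 genes at a value of at least 1, and no 2 libraries held the same values. Read counts were not used here, so depth is unknown in reads. An approximation from small values put the knockout libraries at 0.908 to 1.09 and the wild-type libraries at 0.877 to 1.01 of the median library of the series. In knockout replicate 3, and less so in knockout replicate 5, genes with transcripts of at least 6000 bases stood low against genes with transcripts of at most 1500 bases. The median difference was -1.06 in replicate 3 and -0.61 in replicate 5 on the log2 scale against their own group, and -0.26 to 0.09 in the other 13 libraries. Wild-type replicate 4 stood towards the knockouts. Without it 2182 genes passed the test described here, and on these genes it lay, at the median, 43.7% of the way from the mean of the other 4 wild-type libraries to the knockout mean. Found in the same way, each wild-type library with the genes that passed without it, the position was -1.89% to 10.1% for the other 4. Wild-type replicate 4 had the highest Apoe of its group, which is not a knockout value. Results that rest on these libraries are given without them as well. The study's text names 3 sequencing batches and does not assign them to libraries, so batch and genotype cannot be told apart. In whole tissue, more cells of a type and more RNA per cell cannot be told apart either.

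Apoe itself separated the groups without overlap. The lowest, median and highest of the 10 knockout libraries were 4.31, 8.05 and 15.6, and the 5 wild-type libraries stood at 248, 250.3, 276, 593 and 459. The gene lies at 19696109 to 19699188 on chromosome 7 of GRCm38 (minus strand, protein-coding in GENCODE M21). Its log2 change, here and below the difference in log2(value + 1) of knockout minus wild type with its standard error, was -5.24 ± 0.19 (adjusted p 3.70e-43, limma). The remaining knockout signal was above 0 in all 10 libraries.

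Of the 13152 genes 2140 (16.3%) had an adjusted p under 0.05 in limma's two-sided test, with the Benjamini-Hochberg method over all genes, and are said to pass. Higher in the knockout were 1377 (10.5%) and lower were 763 (5.8%). That balance depended on the processing: quantile normalization gave 1244 higher and 1078 lower, and scores for carried-over tissue as covariates turned it, with 1688 higher and 1929 lower. Weighting each library by how well it fitted (library weights) gave 1610 and 1407, and the lower side counted 419, 506 and 506 genes without wild-type replicates 1 and 2 and knockout replicate 3. The higher side also held the larger changes, with 775 genes (5.89%) at least 1.5-fold higher and 63 genes (0.479%) at least 1.5-fold lower. The groups did not overlap for 619 genes on the higher side (4.71%) and for 184 on the lower side (1.4%). The median change over all genes tested was -0.04, and the changes of the gene lists below are read beside that value and those shares.

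**Figure D1:**
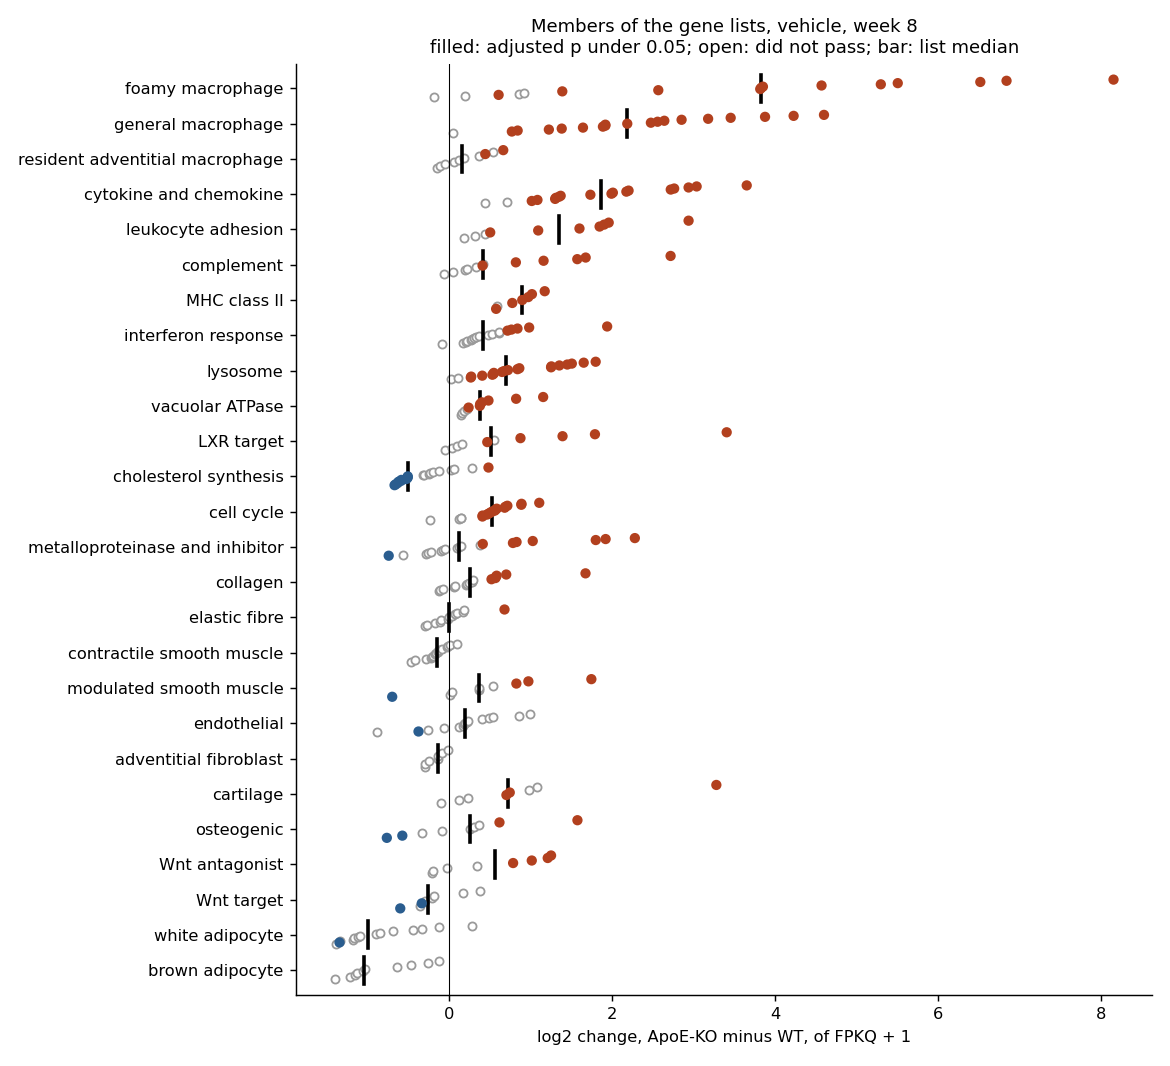
Log2 change of each tested member of 26 gene lists, ApoE knockout minus wild type, vehicle, week 8; filled points passed an adjusted p under 0.05 (red higher, blue lower), open points did not, and the black bar is the list median. The foamy macrophage list spreads furthest to the right, up to 8.16, the cholesterol synthesis list has its called members on the left except 1, and no contractile smooth muscle gene is filled.

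Genes of lipid-laden macrophages showed the greatest rises. Cd5l encodes a factor secreted by macrophages that supports their survival, and its lowest, median and highest knockout values were 176, 322 and 511, against wild-type values of 0.0999, 0.299, 0.0584, 0.0868 and 0.0995. The gene was near 0 in every wild-type library, the one with raised macrophage genes included. Its change of 8.16 ± 0.38 (adjusted p 2.64e-34) was the highest of the named genes. Mmp12, the elastase of macrophages, averaged 163 ± 40.03 in knockout and 0.831 ± 0.633 in wild-type aortas (SD, n = 10 and 5; change 6.52 ± 0.31). Atp6v0d2, a subunit of the proton pump found in macrophages and osteoclasts, averaged 53.4 ± 15.6 in knockout and 0.1498 ± 0.105 in wild-type aortas (change 5.51 ± 0.27).

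Trem2, a lipid-sensing receptor that marks foam cells, had 42.8, 80.3 and 149.7 as its lowest, median and highest knockout values, against wild-type values of 1.50, 1.93, 1.203, 6.77 and 1.68. The groups did not overlap, and wild-type replicate 4 stood above the other wild-type libraries (change 4.57 ± 0.28, adjusted p 1.45e-25). Gpnmb, a glycoprotein of lysosome-rich macrophages, had 224, 426 and 593 against 8.79, 6.54, 9.79, 12.7 and 8.03 (change 5.30 ± 0.29). Spp1, the secreted phosphoprotein osteopontin, ran from 844 to 2075 in knockout libraries, while the wild-type libraries stood at 1.59, 13.5, 2.89, 177 and 6.08. Wild-type replicate 4 set most of the wild-type spread of Spp1: the change was 6.84 ± 0.63 with it and 7.84 ± 0.62 without it. Of the 16 foamy macrophage genes 12 rose, with a median change of 3.82. The 4 that did not pass were Cd9 (0.19), Lpl (0.92), Plin2 (0.85) and Cd36 (-0.19). Fat, muscle or vessel cells express these genes as well. With the carry-over scores as covariates Lpl (1.50, adjusted p 4.65e-10, limma) and Cd36 (0.61, adjusted p 0.00529) passed as higher. The part of other cells in these values was not tested.

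General macrophage markers rose in 18 of 19 cases, with a median change of 2.19. Cd68, a glycoprotein of macrophage endosomes, ran from 81.7 through a median of 159 to 233 in knockout libraries and stood at 7.11, 5.39, 6.72, 15.3 and 10.5 in wild-type libraries. The groups did not overlap (change 3.88 ± 0.26, adjusted p 9.93e-24). Ctss, a macrophage cathepsin, changed by 4.60 ± 0.30, the pore-forming protein gene Mpeg1 by 4.23 ± 0.30, the lysozyme gene Lyz2 by 3.45 ± 0.27 and the tetraspanin gene Cd53 by 2.85 ± 0.26. Mertk, a receptor for dying cells, did not pass, with 22.02 to 46.8 in knockout and 26.6 to 42.0 in wild-type libraries (change 0.05 ± 0.18, adjusted p 0.880). The summed general macrophage markers ran from 2900.0 to 7739 in knockout and from 389.1 to 1095 in wild-type libraries, with 1095 in wild-type replicate 4. Of 10 markers of macrophages that reside in the adventitia 2 rose and the median change was 0.15. That count was 0 without wild-type replicate 2 or 3 and 1 without wild-type replicate 1 or knockout replicate 6 or 10. Folr2, the folate receptor of such cells, changed by 0.66 ± 0.20 (adjusted p 0.0151), a call that ended without wild-type replicate 2 (0.106) or wild-type replicate 3 (0.0664). Whether the resident and the lipid-laden lists differ was not tested.

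**Figure D2:**
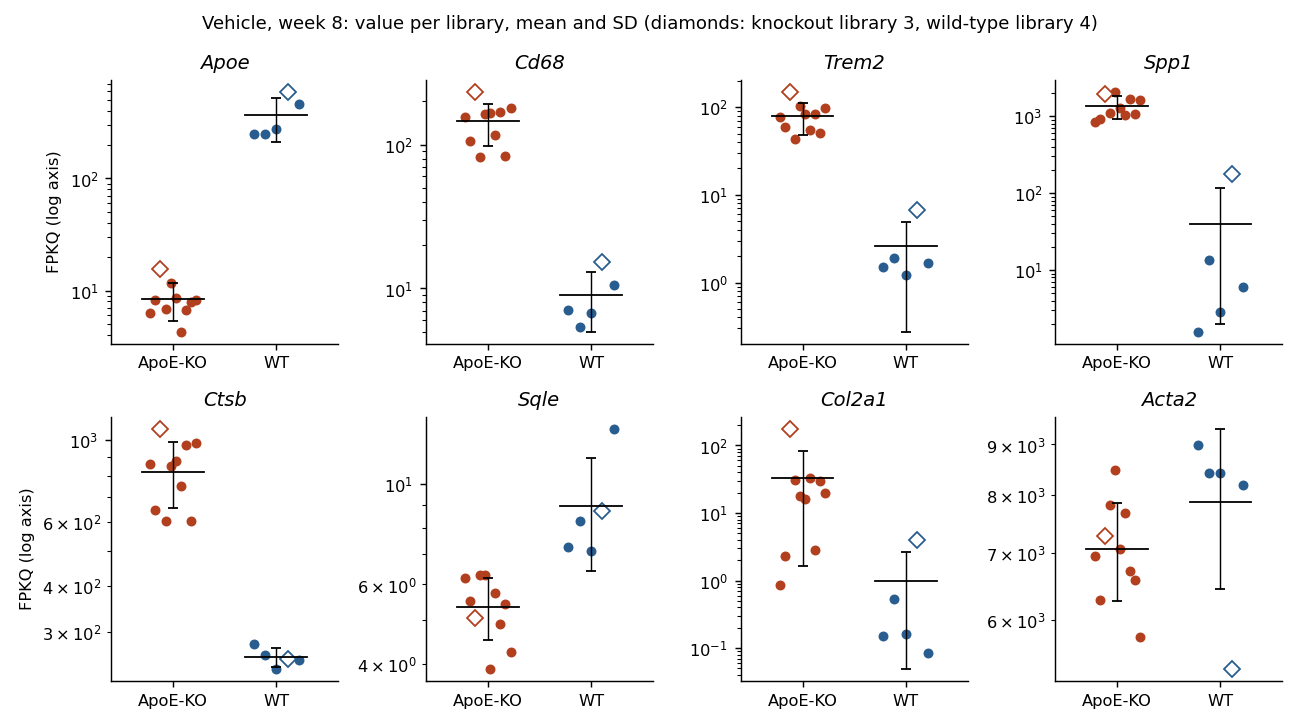
FPKQ value of 8 genes in each library (log axis), ApoE knockout (10) left of wild type (5), with the group mean as a line and the SD as whiskers; a lower whisker that would reach 0 stops short of it. Diamonds mark knockout replicate 3 and wild-type replicate 4. The groups are apart for Apoe, Cd68, Trem2, Spp1, Ctsb and Sqle and overlap for Col2a1 and Acta2. Wild-type replicate 4 is the highest wild-type library for Apoe, Cd68, Trem2, Spp1 and Col2a1 and the lowest for Acta2.

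Attractants of monocytes and neutrophils rose with the macrophage genes. Of 18 measured cytokine and chemokine genes 16 rose (median change 1.86). Ccl2, the main monocyte attractant, had 5.18, 18.1 and 34.9 as its lowest, median and highest knockout values, against 2.92, 1.25, 1.68, 3.41 and 0 in wild-type libraries (change 2.72 ± 0.41, adjusted p 1.08e-07). Ccl3 and Ccl4, chemokines of activated macrophages, changed by 3.04 ± 0.27 and 2.20 ± 0.28, the neutrophil attractant gene Cxcl1 by 2.94 ± 0.38 and the transmembrane chemokine gene Cxcl16 by 2.17 ± 0.25. Il1rn, which encodes the antagonist of the interleukin 1 receptor, averaged 15.3 ± 5.59 in knockout and 0.231 ± 0.0988 in wild-type aortas (change 3.65 ± 0.31). Il1b, the cytokine that this antagonist opposes, did not pass at 1.37 ± 0.583 in knockout and 0.434 ± 0.328 in wild-type aortas (change 0.71 ± 0.27, adjusted p 0.0548). It passed as higher in 8 of the 26 alternatives that tested it. Among them were a pseudocount of 0.1 (1.58, adjusted p 0.0156, limma) and the fit without wild-type replicate 4 (0.83, adjusted p 0.0344). The acute-phase genes Lcn2 and Saa3 changed by 5.19 ± 0.48 and 4.70 ± 0.58.

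Leukocyte adhesion genes rose in 7 of 10 cases, on the side of the vessel wall and on that of the leukocyte. Sele and Selp, the selectins of activated endothelium, changed by 1.60 ± 0.19 and 1.96 ± 0.34, and Selplg, their ligand on leukocytes, by 1.90 ± 0.23. Itgb2, the beta chain of leukocyte integrins, changed by 2.94 ± 0.25. Vcam1, which holds monocytes on endothelium and is made by smooth muscle too, had 126 to 243 in knockout libraries and 25.3, 41.6, 25.4, 138 and 53.7 in wild-type libraries (change 1.84 ± 0.27). The overlap came from wild-type replicate 4 alone. Of 5 measured scavenger receptors 2 rose, the beta-glucan receptor gene Clec7a (4.62 ± 0.30) and the lipoprotein receptor gene Msr1 (2.37 ± 0.25).

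Other immune lists moved less far. Of 7 measured genes of MHC class II presentation 6 rose (median change 0.90): Cd74, the invariant chain, averaged 441 ± 151 in knockout and 199 ± 77.1 in wild-type aortas (change 1.17 ± 0.31, adjusted p 0.00300), with overlapping ranges. H2-Aa, a class II chain, changed by 1.01 ± 0.32 (adjusted p 0.0182), a call that ended without wild-type replicate 1 (0.0602) or wild-type replicate 2 (0.109). Of the list 2 passed without wild-type replicate 1 or 2, and 3 without knockout replicate 3. Complement genes rose in 6 of 12 cases, among them the anaphylatoxin receptor gene C3ar1 (2.72 ± 0.23), C4b (1.67 ± 0.24), the properdin gene Cfp (1.57 ± 0.20) and C3 (1.16 ± 0.22). Of 18 interferon response genes 5 rose, with the antiviral synthase gene Oas1a (1.94 ± 0.23), the related Oasl2 (0.98 ± 0.23) and the tetherin gene Bst2 (0.71 ± 0.19) among them. In comparisons of other animals, 17 of the 18 rose in week 3, 16 in week 16 and 17 under the antibody in week 8. Their median changes there were 0.853, 0.935 and 0.878, and 11.9%, 15.5% and 14.4% of all genes were higher. All 7 MHC class II genes rose in each of those comparisons.

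Lymphocyte genes were scarce. Only 4 of 17 T and NK cell genes reached the filter, and 3 of them rose. Il7r, the interleukin 7 receptor, averaged 13.8 ± 3.25 in knockout and 0.605 ± 0.690 in wild-type aortas (change 3.26 ± 0.23), and Cd4 3.51 ± 1.51 and 0.810 ± 0.806 (change 1.34 ± 0.25). Cd3g, a chain of the T cell receptor complex, did not pass (-0.07 ± 0.26, adjusted p 0.881, limma). Cd3e, below the filter, had medians of 0.474 in knockout and 0.244 in wild-type libraries. The means of Cd3e had the other order, 0.517 in knockout and 0.552 in wild-type libraries. Of 3 measured B and plasma cell genes 0 passed. Of 4 measured neutrophil genes 1 rose, the growth factor receptor gene Csf3r (1.42 ± 0.18), while S100a9, the abundant calcium-binding protein of neutrophils, had 0.966 to 5.64 in knockout and 0.465 to 15.04 in wild-type libraries (change -0.53 ± 0.60, adjusted p 0.591). No mast cell gene of 4 passed.

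Genes of the lysosome, the compartment in which macrophages digest lipoprotein, rose together. Of 20 lysosome genes 18 rose, with a median change of 0.70, and their summed value ran from 5212 to 8797 in knockout and from 2922 to 3399 in wild-type libraries. Ctsb, a cysteine protease, had 602, 855 and 1073 as its lowest, median and highest knockout values, against wild-type values of 279, 259.7, 238, 253 and 252. The wild-type libraries lay within a narrow band that replicate 4 shared (change 1.65 ± 0.14, adjusted p 9.73e-18). Ctsd, an aspartic protease, had 1022, 1544 and 1942 against 516, 489, 441, 630.4 and 500.1 (change 1.50 ± 0.15). Lipa, the acid lipase that frees cholesterol from lipoprotein esters, had 50.9, 76.3 and 92.3 against 26.5, 22.3, 24.3, 30.8 and 30.0 (change 1.45 ± 0.15). The cysteine protease gene Ctsl changed by 1.80 ± 0.20 and the saposin precursor gene Psap by 1.25 ± 0.13. The glycogen-degrading enzyme gene Gaa (0.10 ± 0.09, adjusted p 0.458) and the membrane protein gene Scarb2 (0.02 ± 0.10, adjusted p 0.929) were the members that did not pass.

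Subunits of the vacuolar ATPase, which acidifies lysosomes, rose in 7 of 11 cases with a median change of 0.37. Atp6v1b2, an ATP-binding subunit of the catalytic part, had 34.6, 53.98 and 65.9 as its lowest, median and highest knockout values, against 25.7, 19.8, 19.2, 22.7 and 26.4 in wild-type libraries (change 1.15 ± 0.14). Atp6v0c, of the membrane ring, changed by 0.82 ± 0.11, and Atp6v1a, the catalytic subunit, did not pass (0.21 ± 0.09, adjusted p 0.0983). Among the 4 genes of the MiT family, transcription factors that bind promoters of lysosomal genes, Tfec averaged 3.12 ± 1.19 in knockout and 0.249 ± 0.139 in wild-type aortas (change 1.68 ± 0.18) and Tfe3 20.4 ± 1.43 and 16.0 ± 0.971 (change 0.33 ± 0.07). Tfeb (0.10 ± 0.11) and Mitf (0.22 ± 0.11) did not pass.

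The element that MiT factors are known to bind has the letters TCACGTG at its core. These 7 letters, on either strand, were searched in RefSeq promoter windows of GRCm38.p6, from 250 bases before to 50 after each start. Of 32851 windows 1237 (3.77%) held a match, and of 9776 tested genes with a window 672 (6.87%) did. Among lysosome genes 5 of the 15 with a window did (33.3%), and among vacuolar ATPase genes 3 of 8 (37.5%), as did 3 of 14 cholesterol synthesis genes (21.4%) and 0 of 13 general macrophage genes. The stretches around the match are shown 5′ to 3′ on the gene's own strand, with every match in capitals, because they belong to members that rose together and to 2 that did not pass. The first 6 genes rose: Ctsd by 1.50, Ctsa by 0.65, Glb1 by 0.54, Atp6v0b by 0.40, Atp6v0d1 by 0.38 and Lamp1 by 0.26. Ctsa encodes a protective carboxypeptidase, Glb1 beta-galactosidase, Lamp1 a coat protein of the lysosomal membrane, and Atp6v0b and Atp6v0d1 subunits of the membrane part of the pump. Gaa and Atp6v1a did not pass. The stretches lie at chr7:142388046-142388077 (minus strand), chr2:164833740-164833772 (plus), chr9:114401009-114401055 (plus), chr4:117887340-117887386 (minus), chr8:105566062-105566088 (minus), chr8:13159079-13159125 (plus), chr11:119267802-119267848 (plus) and chr16:44139365-44139411 (minus), in the order of the lines.
Ctsd: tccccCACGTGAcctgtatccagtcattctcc
Ctsa: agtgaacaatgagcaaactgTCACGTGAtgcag
Glb1: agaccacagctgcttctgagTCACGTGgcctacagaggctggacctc
Atp6v0b: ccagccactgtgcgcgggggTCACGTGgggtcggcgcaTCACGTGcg
Atp6v0d1: agagccaggccctactgcggTCACGTG
Lamp1: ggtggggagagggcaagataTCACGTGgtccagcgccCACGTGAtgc
Gaa: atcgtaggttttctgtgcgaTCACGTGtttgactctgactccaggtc
Atp6v1a: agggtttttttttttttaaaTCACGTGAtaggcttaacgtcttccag
Where the letters on both strands overlap, as in Ctsa and Atp6v1a, the capitals run to 8. A match describes the letters only. The window of Lipa, which rose further than the genes shown except Ctsd, does not hold them.

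Cholesterol genes split by role. Targets of LXR, the oxysterol receptor that turns on export, rose in 5 of 10 cases. Abcg1, which moves cholesterol to high-density lipoprotein, had 18.4, 28.4 and 39.4 as its lowest, median and highest knockout values, against 2.67, 1.70, 1.42, 1.84 and 1.18 in wild-type libraries (change 3.41 ± 0.22, adjusted p 2.36e-24). The exporter gene Abca1 changed by 1.39 ± 0.13, the phospholipid transfer protein gene Pltp by 1.79 ± 0.17, Arl4c by 0.87 ± 0.18, and Mylip, which encodes a ubiquitin ligase, by 0.47 ± 0.09.

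Genes of the cholesterol synthesis list went the other way: 10 of 21 measured fell and 1 rose, with a median change of -0.51. Sqle, the epoxidase of squalene, had 3.91, 5.47 and 6.30 as its lowest, median and highest knockout values, against 7.28, 8.29, 7.12, 8.73 and 13.2 in wild-type libraries. The groups did not overlap (change -0.62 ± 0.11, adjusted p 6.42e-06). Srebf2, the transcription factor that drives these genes, averaged 13.7 ± 1.89 in knockout and 20.0 ± 3.62 in wild-type aortas (change -0.51 ± 0.10, adjusted p 5.86e-05). The sterol demethylase gene Cyp51 changed by -0.59 ± 0.14. The count of lower members depended on the libraries: leaving out single libraries gave 6 to 10, with 6 without wild-type replicate 4, and leaving out knockout replicate 3 with wild-type replicate 4 gave 5. In comparisons of other animals, 4 of the 21 fell in week 3, 14 in week 16 and 3 under the antibody in week 8. Their median changes there were -0.05, -0.35 and -0.13, and 14.7%, 22.9% and 19.7% of all genes were lower. Under the antibody 1 member rose.

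**Figure D3:**
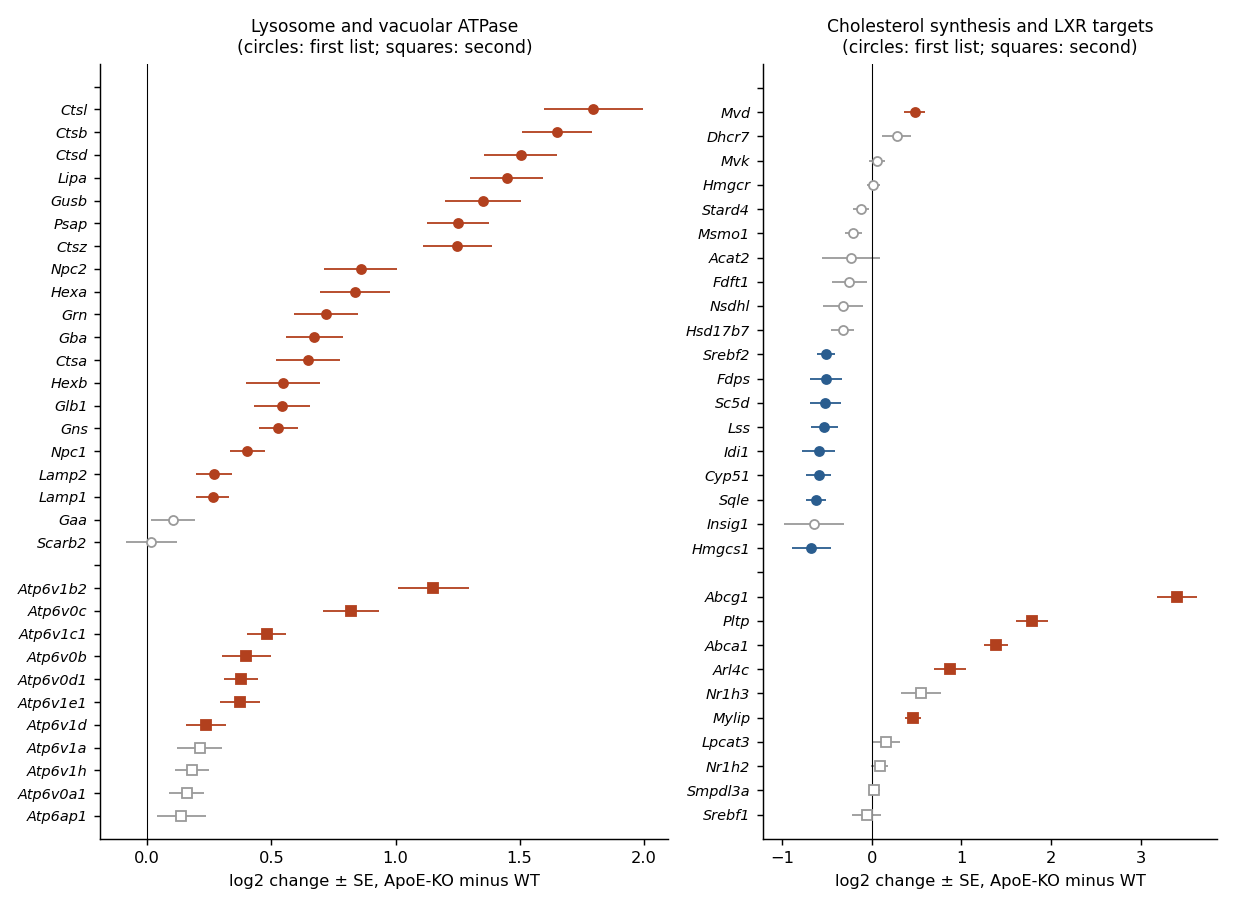
Log2 change with its standard error, ApoE knockout minus wild type, for lysosome and vacuolar ATPase genes (left) and for most of the cholesterol synthesis genes and LXR targets (right); red rose, blue fell, and open grey symbols did not pass. Lysosome genes run from 0.02 to 1.80, and the lower cholesterol genes drawn lie between -0.67 and -0.51.

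Cell cycle genes rose in 15 of 19 measured cases with a median change of 0.52, from low levels. Cdk1, the kinase that starts mitosis, had 2.14, 3.40 and 5.41 as its lowest, median and highest knockout values, against 1.30, 1.46, 0.712, 1.50 and 0.539 in wild-type libraries (change 1.104 ± 0.17, adjusted p 2.74e-07). The cyclin genes Ccna2 and Ccnb1 changed by 0.88 ± 0.16 and 0.68 ± 0.15, the mitotic kinase gene Aurka by 0.52 ± 0.11 and the thymidylate synthase gene Tyms by 0.41 ± 0.08. With 1 added to values near 1 to 3, these changes understate the ratios.

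Among genes that build and cut the matrix the changes were selective. Of 19 measured metalloproteinases and inhibitors 7 rose and 1 fell. Mmp14, a protease anchored in the cell membrane, had 51.8 to 80.3 in knockout libraries and 35.6 to 40.1 in wild-type libraries (change 0.78 ± 0.16). The collagenase genes Mmp13 and Mmp8 changed by 1.92 ± 0.29 and 1.02 ± 0.20 and Mmp19 by 1.80 ± 0.25. Timp1, an inhibitor of these enzymes, ran from 143 to 402 in knockout libraries and stood at 25.4, 35.8, 26.3, 191 and 32.5 in wild-type libraries (change 2.28 ± 0.37). Of 16 collagen genes 6 rose, led by Col8a1, a short-chain collagen of injured vessels (1.67 ± 0.30), and Col5a2 (0.57 ± 0.16). In other animals 1 of the 16 rose and 7 fell in week 3, and 9 rose and 1 fell in week 16. Under the antibody in week 8, 8 rose and 0 fell. The median changes there were -0.267, 0.361 and 0.312. Of all genes 11.9%, 15.5% and 14.4% were higher and 14.7%, 22.9% and 19.7% lower. Col1a1, the main fibrillar collagen chain, averaged 322 ± 50.1 in knockout and 198 ± 30.4 in wild-type aortas (change 0.70 ± 0.21, adjusted p 0.0141), a call that ended without wild-type replicate 1 (0.0701). Its partner Col1a2 did not pass (0.29 ± 0.17, adjusted p 0.250). Of 13 elastic fibre genes 1 rose, the crosslinking enzyme gene Loxl2 (0.67 ± 0.17), and the elastin gene Eln did not pass (0.18 ± 0.30). Of 10 measured proteoglycans 1 rose: Lum, the collagen-binding lumican, had 286 to 798 in knockout libraries and 150.0, 137, 133, 373 and 143 in wild-type libraries (change 1.38 ± 0.26).

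Contractile smooth muscle genes were not called in either direction in any of 16 cases, and their median change was -0.15. In comparisons of other animals, 8 of the 16 were lower in week 3, 13 in week 16 and 11 under the antibody in week 8. Their median changes there were -0.45, -0.57 and -0.49, and 14.7%, 22.9% and 19.7% of all genes were lower. No member passed the test of a difference in knockout effect between weeks 8 and 3. Acta2, smooth muscle actin, had 5762, 7014 and 8476 as its lowest, median and highest knockout values in week 8 under vehicle. The wild-type values were 8995, 8434, 8431, 5357 and 8201 (change -0.14 ± 0.20, adjusted p 0.668, limma). Wild-type replicate 4 was below every knockout library, and the other 4 wild-type libraries overlapped the knockouts at 8201 to 8476. Tagln, an actin-binding protein of the same cells, changed by -0.14 ± 0.19 (adjusted p 0.648). Genes of modulated smooth muscle rose in 3 of 9 cases and fell in 1, a fall that ended without any of wild-type replicates 1, 2 and 4 and knockout replicates 1, 4 and 8. Ly6a, a surface marker of such cells in mice, changed by 0.97 ± 0.21, the fibronectin gene Fn1 by 0.82 ± 0.20 and the matricellular protein gene Thbs1 by 1.74 ± 0.35, or by 2.36 ± 0.34 without wild-type replicate 4. Endothelial genes were called in 1 of 15 cases, the thrombomodulin gene Thbd, which fell by 0.39 ± 0.11 (adjusted p 0.00508, and 0.0756 without knockout replicate 3 and wild-type replicate 4). Pecam1, an adhesion molecule at endothelial junctions, ran from 85.2 to 219 in knockout libraries and stood at 109.4, 167, 129, 31.4 and 209.6 in wild-type libraries (change 0.53 ± 0.29, adjusted p 0.221). No adventitial fibroblast gene of 7 passed.

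Cartilage and bone genes varied widely between knockout animals. Col2a1, the fibrillar collagen of cartilage, had 0.859, 18.7 and 175 as its lowest, median and highest knockout values, against 0.153, 0.528, 0.159, 4.00 and 0.0833 in wild-type libraries. Of 10 knockout libraries 7 stood at 15.9 to 175, 3 stood below the highest wild-type value, and the highest was replicate 3 (change 3.28 ± 0.59, adjusted p 7.16e-06). Sox9, the factor that directs cartilage formation, changed by 0.70 ± 0.15, and 3 of 8 measured cartilage genes rose. Chad, a cartilage matrix protein, did not pass (1.08 ± 0.56, adjusted p 0.185). Ibsp, the bone sialoprotein of mineralizing matrix, had 1.39, 4.86 and 94.5 in knockout libraries, with replicate 3 at 94.5, against 1.08, 1.31, 1.93, 0.570 and 0.490 in wild-type libraries (change 1.57 ± 0.51, adjusted p 0.0232). Its call ended without knockout replicate 3 (0.0971), wild-type replicate 4 (0.0529) or wild-type replicate 5 (0.0619). It ended also with library weights (0.092), with the week 8 groups alone (0.0718) and with the compared groups alone (0.131). Without knockout replicate 3 and wild-type replicate 4 together its adjusted p was 0.171.

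Of 9 measured osteogenic genes 2 rose and 2 fell, but 0 rose without knockout replicate 3 or wild-type replicate 4 or 5, left out singly, or with library weights. Alpl, the phosphatase that removes the mineralization inhibitor pyrophosphate, had 6.02, 8.55 and 15.4 as its lowest, median and highest knockout values, against 6.40, 10.8, 4.96, 2.48 and 4.15 in wild-type libraries. The groups overlapped (change 0.62 ± 0.22, adjusted p 0.0404), and the call ended without any of knockout replicates 3, 5 and 7 and wild-type replicates 3, 4 and 5, with adjusted p up to 0.237. It ended also with library weights (0.25, adjusted p 0.408), with the replicate block (0.0830), in the compared groups alone (0.102), without knockout replicate 3 and wild-type replicate 4 together (0.393) and in 4 further alternatives (0.0518 to 0.0621). Omd, a proteoglycan of mineralized tissue, averaged 18.3 ± 5.27 in knockout and 30.9 ± 4.23 in wild-type aortas (change -0.77 ± 0.21, adjusted p 0.00492). The osteoblast factor gene Runx2 did not reach the filter, with medians of 0.846 in knockout and 0.404 in wild-type libraries, nor did the osteocalcin gene Bglap, listed at a median of 0 in both groups. Mgp, the matrix protein that keeps arteries free of mineral, ran from 6963 to 19104 in knockout libraries and from 6038 to 16141 in wild-type libraries, with replicate 3 and replicate 4 at the top of their groups (change 0.23 ± 0.23, adjusted p 0.527). Nt5e, an adenosine-making enzyme whose loss in humans causes arterial calcification, changed by 1.20 ± 0.25. Of 6 measured osteoclast genes 2 rose, the collagen-degrading cathepsin gene Ctsk (1.18 ± 0.19) and the chloride transporter gene Clcn7 (0.40 ± 0.08), both of which macrophages express too.

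Sost encodes sclerostin, the Wnt antagonist that the study's antibody binds, and vascular smooth muscle expresses it. Its lowest, median and highest knockout values were 199, 299 and 387, against wild-type values of 426, 373, 573, 462 and 575. The groups overlapped between 373 and 387, and the change was -0.72 ± 0.24 (adjusted p 0.0275). That call ended without wild-type replicate 3 (0.0830), wild-type replicate 5 (0.0794) or knockout replicate 8 (0.0532). Other secreted Wnt antagonists rose in 4 of 8 measured cases: Frzb (1.25 ± 0.29), Sfrp4 (1.21 ± 0.33), Dkk2 (1.01 ± 0.18) and Sfrp5 (0.78 ± 0.21). Frzb overlapped only through wild-type replicate 4, with 33.4 to 98.2 in knockout libraries and 14.8, 18.3, 22.8, 46.4 and 30.5 in wild-type libraries. Of 8 measured Wnt target genes 2 fell, among them the feedback inhibitor gene Apcdd1 (-0.60 ± 0.16, adjusted p 0.00482), whose call ended without knockout replicate 3 and wild-type replicate 4 together (0.0771). The count of 2 was 1 without wild-type replicate 4 or 5 or knockout replicate 2 or 5. Axin2, the feedback gene used most often to read canonical Wnt signalling, had 0.471, 1.03 and 1.66 against 1.42, 1.75, 1.38, 1.63 and 1.30 (change -0.30 ± 0.15, adjusted p 0.185). Tgfb1, a growth factor that drives matrix production, changed by 0.64 ± 0.15, and of 15 genes of the TGF-beta list 2 rose and 2 fell, with 1 each without wild-type replicate 1, 2 or 3.

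Among genes that passed, the lowest changes after Apoe were those of Tmem45b (-1.71 ± 0.60), Tusc5 (-1.65 ± 0.57), Rbp7 (-1.57 ± 0.57), Nnat (-1.47 ± 0.40), Lep (-1.36 ± 0.36) and Lctl (-1.23 ± 0.43). Tusc5, Rbp7 and Lep are known from fat. Lep, the fat cell hormone leptin, had 0.0403, 0.928 and 2.90 as its lowest, median and highest knockout values, against 4.58, 3.96, 1.08, 5.51 and 5.33 in wild-type libraries. Wild-type replicate 3 lay among the knockouts for it (adjusted p 0.00403). Fat markers moved with these genes. The 14 white adipocyte markers summed to 459.6 to 1691 in knockout and 668 to 2746 in wild-type libraries, and the 10 measured brown adipocyte markers had a median change of -1.05. Of the white markers 1 was called, Lep, and of the brown ones 0. In comparisons of other animals the fat lists were not lower in this way. The white markers had median changes of 0.956 in week 3, -0.00323 in week 16 and 0.191 under the antibody in week 8. Those of the brown markers were 1.12, 0.0733 and 0.0892. The thermogenic protein gene Ucp1 stood at 10.8 to 296 in knockout and 63.7 to 652 in wild-type libraries (change -1.40 ± 0.82, adjusted p 0.251). No marker of either list was at 0 in all 15 libraries, and the part of residual fat in these genes was not tested. The calls of Tmem45b, Tusc5, Rbp7 and Lctl each ended without wild-type replicates 1, 4 or 5 and knockout replicates 4, 8 or 10, left out singly, with adjusted p up to 0.151, 0.107, 0.129 and 0.115. Knockout replicate 6 did the same for Tmem45b and Rbp7, and knockout replicate 1 and wild-type replicate 2 for Rbp7.

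The other low changes were of Apold1, an early response gene of endothelium (-1.08 ± 0.35), Npr3, the clearance receptor of natriuretic peptides (-1.03 ± 0.22), the glutamine transporter gene Slc1a5 (-1.03 ± 0.16), Sntb1 of the dystrophin complex (-0.98 ± 0.29; adjusted p 0.0689 without knockout replicate 3 and wild-type replicate 4 together), and Epyc, a proteoglycan of cartilage (-0.95 ± 0.27). Npr3 averaged 1.82 ± 0.635 in knockout and 4.86 ± 1.78 in wild-type aortas. The call of Apold1 ended without wild-type replicate 1 (0.0621), 2 (0.0663) or 4 (0.0810). Epyc stood at 0.815 to 3.87 in knockout libraries and at 23.2 in wild-type replicate 4, without which its change was -0.46 (adjusted p 0.225).

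Genes beside Apoe were called more often than genes elsewhere. Of 87 tested genes that start within 5 Mb of Apoe on chromosome 7, 33 passed (37.9%), 11 higher and 22 lower, beside 16.3% of all genes. Farther than 10 Mb away on the same chromosome 135 of 794 passed (17%), and on other chromosomes 1921 of 11881 (16.2%). Within 1 Mb 11 of 37 passed (29.7%). Bcam, a laminin-binding adhesion molecule that starts 0.06 Mb from Apoe, had 136, 163 and 184 as its lowest, median and highest knockout values, against 237, 329, 338, 259 and 295 in wild-type libraries, with no overlap (change -0.84 ± 0.17). Bcl3, a regulator of NF-kappaB, rose (1.40 ± 0.26), as did Trappc6a (0.83 ± 0.15) and its neighbour Bloc1s3 (0.37 ± 0.07), genes of vesicle traffic. Lower were the helicase gene Ercc2 (-0.64 ± 0.09), the kinesin light chain gene Klc3 (-0.83 ± 0.18), Mark4 (-0.34 ± 0.07), Sympk (-0.26 ± 0.07), Eml2 (-0.38 ± 0.13), Ccdc61 (-0.36 ± 0.11) and Ppp1r37 (-0.24 ± 0.06). Without wild-type replicate 3 the calls of Ccdc61 (0.0957), Eml2 (0.0954) and Ppp1r37 (0.0536) ended, and that of Eml2 ended also without wild-type replicate 2 or 5 or knockout replicate 3 or 10. Slc1a5, named above, starts 2.92 Mb away and had 30.7 to 54.6 in knockout libraries and 62.7 to 98.5 in wild-type libraries.

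The same neighbours moved in animals of the other days and treatment, which share no library with these. All 33 genes had the same direction in the vehicle comparison of week 3, in that of week 16 and in the antibody comparison of week 8. Of the 33, 29 passed there in week 3, 31 in week 16 and 32 under the antibody, and 28 passed in all 4 comparisons. The same count was not made for called genes elsewhere, so this agreement is not shown to be particular to the neighbours of Apoe. Within 5 Mb 47.1% of genes passed in week 3, 55.2% in week 16 and 54% under the antibody, against 26.6%, 38.7% and 34.3% on other chromosomes. The labels give no allele or breeding history by which the region could be described further.

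**Figure D4:**
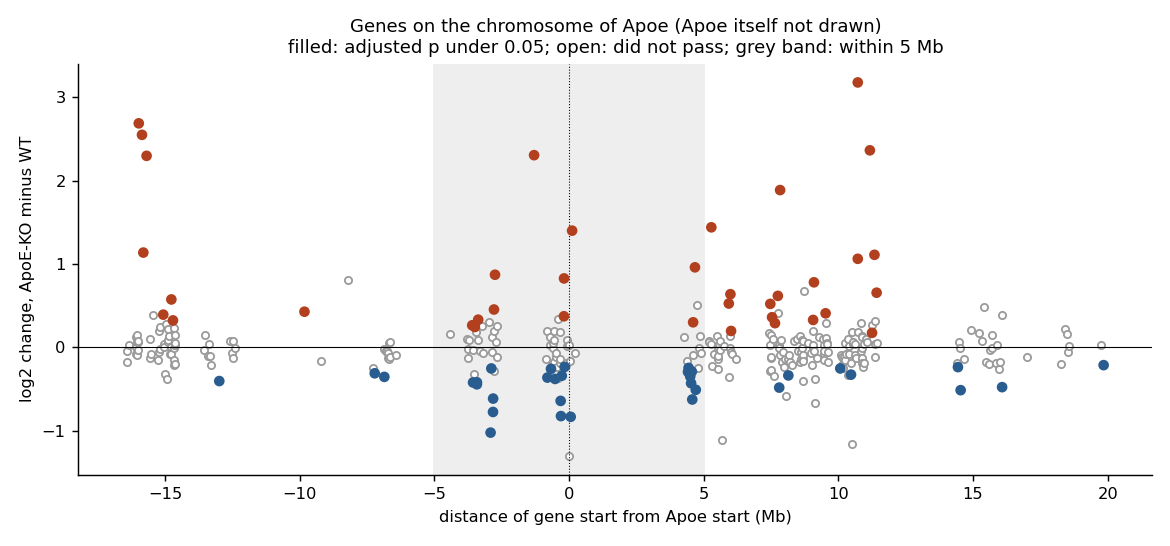
Log2 change, ApoE knockout minus wild type, of tested genes on the chromosome of Apoe within 20 Mb of it, by distance of their start from that of Apoe (Mb; Apoe itself is not drawn); filled points passed (red higher, blue lower), open points did not, and the grey band marks 5 Mb to either side. In the band 33 of 87 genes are filled, 22 of them below 0.

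The knockout effect of week 8 was set against that of week 3, with other animals of 8 libraries a group. In week 3 3501 of the same 13152 genes passed (26.6%; 11.9% higher and 14.7% lower), in week 16 5056 (38.4%; 15.5% and 22.9%) and under the antibody in week 8 4484 (34.1%; 14.4% and 19.7%). Group sizes differ between these comparisons, and the 5 wild-type libraries of week 8 are the smallest group. The part of group size in these counts was not tested. The test of the difference itself called 40 genes (0.304%) between weeks 8 and 3, 37 of them (0.281%) with a higher knockout effect in week 8 and 3 (0.0228%) with a lower one. Of the foamy macrophage list 7 of 16 genes passed it, all higher, and of the lysosome list 3 of 20. Crabp2, a carrier of retinoic acid, had the lowest adjusted p (0.000228): its change was 0.42 in week 3 and 2.56 in week 8, a gain of 2.14 ± 0.35. In week 8 its values were 3.96, 6.46 and 13.1 in knockout libraries and 0, 0.363, 0.448, 0.759 and 0 in wild-type libraries.

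Other gains from week 3 to week 8 were in Htr2b, a serotonin receptor gene (1.31 ± 0.24), Slurp1 (1.99 ± 0.38), the ubiquitin ligase gene Rnf128 (1.80 ± 0.36) and the protease gene Prss46, listed at 0 in all 5 wild-type libraries of week 8 and at 1.09 to 3.94 in the knockouts. Macrophage genes gained by 1.97 ± 0.40 for Gpnmb, 1.93 ± 0.42 for Mmp12, 1.69 ± 0.38 for Trem2, 1.57 ± 0.36 for Atp6v0d2, 1.56 ± 0.35 for Cd84 and 2.06 ± 0.52 for Cd5l. The cathepsin genes Ctsl and Ctsb gained by 1.21 ± 0.27 and 0.85 ± 0.19. Cd68 itself did not pass this test (1.15 ± 0.35, adjusted p 0.122). Several of these calls rested on single wild-type libraries. That of Trem2 ended without replicate 1, 3 or 5 (adjusted p 0.0570 to 0.0646), those of Atp6v0d2 (0.0520 to 0.0652) and Cd84 (0.0546 to 0.0770) without replicate 3 or 5, and that of Mmp12 without replicate 3 (0.0520). That of Cd5l ended without any of 12 of the 15 libraries (0.0508 to 0.0929). With scores for carried-over tissue as covariates the calls named here ended except those of Crabp2, Htr2b and Slurp1. The gains were then 1.67 for Trem2 (adjusted p 0.115, limma), 1.86 for Mmp12 (0.0907) and 1.62 for Gpnmb (0.120). They were 1.55 for Cd5l (0.549), 1.40 for Cd84 (0.245), 1.26 for Atp6v0d2 (0.340), 0.96 for Ctsl (0.319) and 0.77 for Ctsb (0.226). At a pseudocount of 0.1 the calls of Rnf128 (0.0513), Trem2 (0.0730), Mmp12 (0.0853), Htr2b (0.0968), Atp6v0d2 (0.138) and Cd5l (0.216) ended. The count of 40 was 22, 67 and 23 without wild-type replicates 3, 4 and 5. Weeks differ in age and may differ in batch, which cannot be told apart. Fat markers differed as well: the median difference in knockout effect was -1.84 for the white and -2.01 for the brown adipocyte list, and 0 members passed. For the foamy macrophage list it was 1.42. The part of fat in these gains was not tested.

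No gene passed the test of a difference between weeks 16 and 8 (0 of 13152; 821 at an unadjusted p under 0.05, smallest adjusted p 0.203, limma), nor between vehicle and antibody in week 8 (0; 940 unadjusted, smallest adjusted p 0.0918). A result short of the threshold does not show that the effects are alike. Left out singly, wild-type replicate 4 and knockout replicate 3 gave 1 and 3 calls between weeks 16 and 8, and wild-type replicate 3 gave 4 between vehicle and antibody, as knockout replicates 1 and 9 each gave 1. Sost changed by -0.45, -0.72 and -1.10 in weeks 3, 8 and 16 and by -0.80 under the antibody. Col2a1 changed by -0.07, 3.28 and 6.20 in weeks 3, 8 and 16, and by 3.44 under the antibody. Its gain between weeks 3 and 8 (3.35 ± 0.80) passed, and the call ended without wild-type replicate 1, 3 or 5 or knockout replicate 3 (adjusted p 0.0614 to 0.0902). Sqle changed by -0.27, -0.62 and -0.58, and by -0.34 under the antibody.

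**Figure D5:**
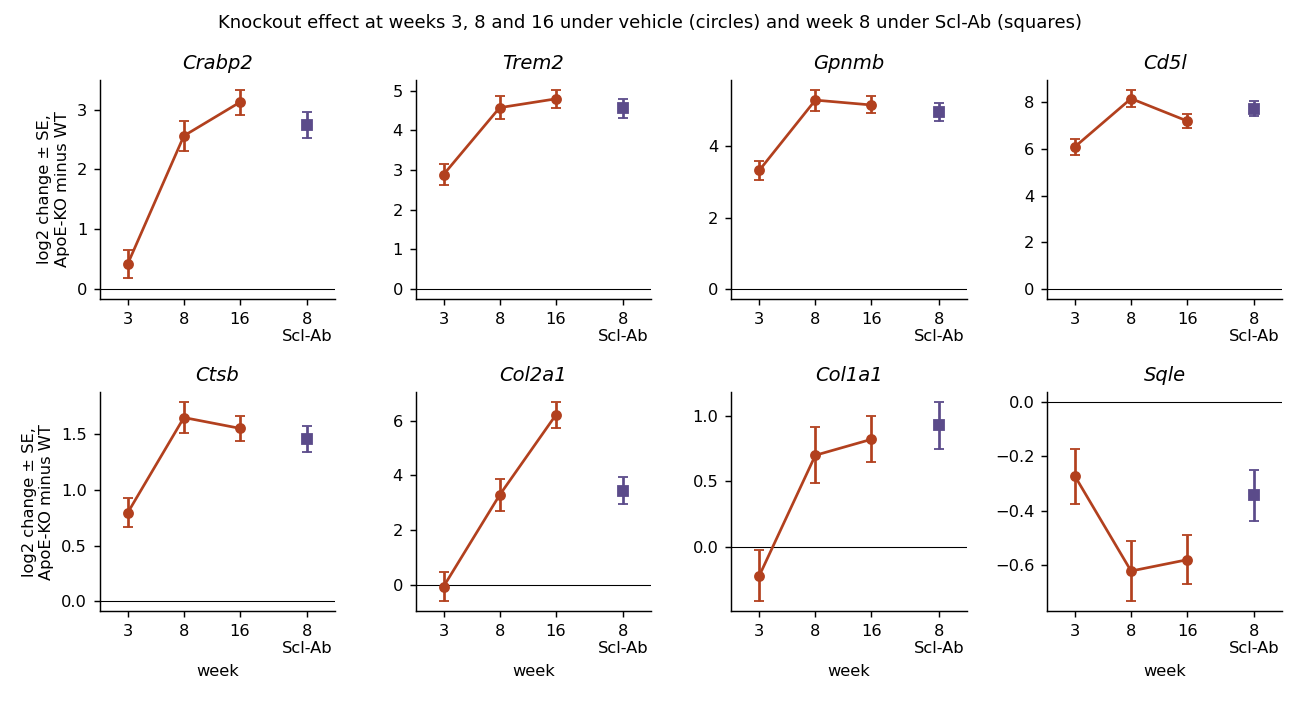
Knockout effect (log2 change with its standard error, ApoE knockout minus wild type) of 8 genes at weeks 3, 8 and 16 under vehicle (circles, joined only to guide the eye, since each week has its own animals) and at week 8 under the antibody Scl-Ab (squares). Crabp2, Trem2, Gpnmb and Ctsb are higher at week 8 than at week 3, and Col2a1 runs from -0.07 at week 3 to 6.20 at week 16.

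Within the 10 knockout animals Cd68 was related to 5 other genes on the log2(value + 1) scale. It was correlated with Trem2 (Pearson's r 0.957, permutation p 7e-05, adjusted over the 5 relations 0.00035; Spearman's rho 0.915, permutation p 0.00049). Without replicates 4 and 9, the libraries farthest from the median of Cd68, r was 0.946. For Spp1 r was 0.67 (permutation p 0.0375, adjusted 0.0937; rho 0.636, permutation p 0.0534) and 0.729 without those libraries. For Col2a1 (r 0.104, permutation p 0.768; rho 0.0303), Acta2 (r -0.05, permutation p 0.896; rho -0.139) and the fat cell gene Adipoq (r 0.0739, permutation p 0.837; rho -0.00606) no relation was detected, and all 3 had an adjusted p of 0.896. Without replicates 4 and 9 these were 0.52, 0.0553 and -0.000777. Knockout replicate 3 carried the highest Cd68, Trem2, Col2a1 and Ibsp of its group and also the strongest loss of long transcripts, and the part of RNA quality in its values was not tested.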

How the data were processed

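The values are those the authors deposited, 1 per gene symbol and library in a column named FPKQ, taken as fpkm-type values. The labels do not define FPKQ, and scaling of each library to a shared quantile is inferred from the values. Per the submitters' processing notes, the build was GRCm38 and DESeq2 1.10.1 was among the tools. Which aligner, annotation and strand setting were used is not given in the sources used here. Of the sample files 1 had no header line. Read counts were not used, so no counting interval is given, and the p-values measure the spread between animals.

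Values were tested on the scale log2(value + 1), which understates changes of low genes, after a filter of at least 1 in at least 5 of the 15 libraries. limma 3.58.1 (R 4.3.3, statmod 1.5.0) was fitted with a mean for each of the 12 groups over all libraries of the series, with a mean-dependent and robust variance prior, two-sided, and p-values were adjusted by Benjamini-Hochberg over all 13152 genes at 0.05. The differences in knockout effect are contrasts of that fit. Correlations used 100000 permutations. Tables and figures were made with Python 3.11.15, pandas 2.3.3, numpy 2.4.6, scipy 1.17.1 and matplotlib 3.10.9. Positions come from GENCODE M21, which matched 12875 tested genes (97.9%), and promoter windows from RefSeq on GRCm38.p6. The fit was tested on simulated data.

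The gene lists and named genes were chosen with earlier results of these data known. Named were a set of plaque, bone and Wnt genes, the 12 highest and 12 lowest called changes, leading called and most expressed uncalled members of each list, called genes near Apoe and the lowest adjusted p of each difference test. The lead of each group is named in the text and the others are counted. The alternatives were another pseudocount, other filters, rescaling by median of ratios, quantile normalization, library weights, the replicate number as a block, scores for carried-over tissue or the clock as covariates, fewer groups in the fit, and leaving out libraries. Leaving out knockout replicate 3 and wild-type replicate 4 together was chosen after seeing the data. Results for a few genes are not reported here.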

Additional observations from a re-analysis of the deposited data

Results flagged for a closer look

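Of 291 sets of libraries, 1 per named gene and group, 30 (10.3%) held a library that stood far from the rest of its group by Dixon's criterion, which chance meets in about 1 in 20. Wild-type replicate 4 accounted for 14 of them. It was high for Trem2 (6.77, the others 1.203 to 1.93), Col2a1 (4.00), Mpeg1 (14.2), Cxcl16 (11.4), Selplg (6.70), Ctsl (315), Il7r (1.82), Timp1 (191), Lum (373), Mgp (16140), Ctsk (35.1) and Ctsa (90.5), and low for Acta2 (5357, the others 8201 to 8995) and Cd9 (404). Knockout replicate 3 was high for Folr2 (44.2), Ccl4 (10.9), Ibsp (94.5, the others 1.39 to 8.58), Mgp (19100) and Atp6v0b (239), and low for Sntb1 (0.553). Knockout replicate 8 was high for Oas1a (13.6), Col8a1 (60.6) and Col5a2 (129.8) and low for Thbd (28.98). Single values that stood apart were Cd36 at 39.5 in knockout replicate 4, Atp6v0c at 117.1 and Klc3 at 4.73 in wild-type replicate 1, Cd5l at 0.299 in wild-type replicate 2, Lep at 1.08 in wild-type replicate 3 and Slurp1 at 1.07 in wild-type replicate 5, where the other wild-type libraries were listed at 0.

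The knockout effect differed between week 8 and week 3 for 15 named genes in limma's test of the difference. It was greater in week 8 by 2.14 for Crabp2, 3.35 for Col2a1, 2.06 for Cd5l, 1.99 for Slurp1, 1.97 for Gpnmb, 1.93 for Mmp12, 1.80 for Rnf128, 1.69 for Trem2, 1.57 for Atp6v0d2, 1.56 for Cd84, 1.31 for Htr2b, 1.24 for Prss46, 1.21 for Ctsl and 0.853 for Ctsb on the log2 scale. For Epyc the difference was -1.46 ± 0.36 (adjusted p 0.0420), and the call ended without any of 6 libraries, wild-type replicate 4 among them (adjusted p 0.0519 to 0.204).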

How the results depend on the processing

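The count of 2140 called genes was 1489 to 3017 under the other alternatives and 3617 with scores for carried-over tissue as covariates, and 1567 to 2319 with single libraries left out. It was 1893 with the compared groups alone, and 1834 without knockout replicate 3 and wild-type replicate 4. Of the 2140 calls 1377 were higher and 763 lower. Quantile normalization gave 1244 and 1078, carry-over scores 1688 and 1929, library weights 1610 and 1407, and single libraries left out 1148 to 1420 and 419 to 899. Of 40 calls between weeks 8 and 3, a pseudocount of 0.1 gave 20, library weights 2438, carry-over scores 5, and single libraries left out 22 to 67. Of 0 between weeks 16 and 8, no filter gave 9, library weights 20, those 2 libraries left out together 2, and single libraries left out 0 to 3. Of 0 between vehicle and antibody, no filter gave 5, the replicate block 1, and single libraries left out 0 to 4. The cause was not tested.

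Of 125 called genes among the 146 named, 0 changed sign in any of the 26 or 27 alternatives that tested them, and 21 lost the call in at least 1. Beside those given with their values, Atp6v0b (0.0629), Sympk (0.0741), Epyc (0.111), Ccdc61 (0.0869), Ppp1r37 (0.0501) and Tmem45b (0.0538) lost it with the compared groups alone. Lamp1 did under quantile normalization (0.0543) and Eml2 with the clock covariates (0.0805). Without knockout replicate 3 and wild-type replicate 4 Sost (0.0511), Eml2 (0.0757), Epyc (0.248) and Apold1 (0.102) lost it. So did Tmem45b (0.074), Tusc5 (0.108), Rbp7 (0.104) and Lctl (0.115). These last genes lost it with the replicate block too (0.0639 to 0.0926), and some of them with other settings.

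Of the named genes that were not called, 7 passed in at least 1 alternative. Il1b did in 8, Lpl in 4 (carry-over scores, library weights, week 8 groups alone and compared groups alone) and Atp6v1a in 2 (library weights 0.0405, week 8 groups alone 0.0149). Mitf passed with library weights (0.0399), Col1a2 in the compared groups alone (0.0289), Axin2 as lower under quantile normalization (-0.43, 0.0453) and Cd36 as higher with carry-over scores (0.00529).

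Genes that were not called changed sign in some fits. Mertk was -0.094 with carry-over scores and -0.049 to 0.13 with single libraries left out. Cd36 was 0.10 with library weights, 0.61 with carry-over scores and -0.60 to 0.041 with single libraries left out. Scarb2 was -0.0044 under quantile normalization, -0.11 with library weights, -0.033 with carry-over scores, -0.049 without both libraries and -0.064 to 0.092 with single ones left out. Cd3g was 0.17 at a pseudocount of 0.1, 0.12 with carry-over scores, 0.15 without both libraries and -0.28 to 0.16 with single ones left out. Eln was -0.13 with carry-over scores and Tagln 0.0057 under quantile normalization. With single libraries left out r with Cd68 was 0.572 to 0.827 for Spp1, -0.35 to 0.24 for Col2a1, -0.19 to 0.16 for Acta2 and -0.23 to 0.298 for Adipoq.

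Same-numbered knockout and wild-type libraries had correlations of 0.189, -0.0212, -0.197, -0.276 and 0.298. These 5 values cannot decide whether the number pairs animals, and the labels do not say so. With the replicate block 1829 genes were called. Depth in reads is unknown, which limits what can be said of genes with values near or below 1.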

Other observations

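The predicted gene Gm45104, chosen after its values were seen, starts 1.30 Mb from Apoe and averaged 4.17 ± 0.609 in knockout and 0.0413 ± 0.0417 in wild-type aortas (SD, n = 10 and 5; log2 change 2.30 ± 0.10, adjusted p 1.03e-35, limma), and its change was 2.31 in week 3, 2.00 in week 16 and 2.37 under the antibody in week 8.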
